A study of Mus musculus with 2 samples.

Results

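The immunoglobulin constant genes detected in mouse bone marrow, together with Jchain, were followed across marrow cell types. They are 10 of the 31053 genes in the deposited count matrices and were taken by symbol: the heavy chain constant genes Ighm, Ighd, Igha, Ighg2b and Ighg2c, the light chain constant genes Igkc, Iglc1, Iglc2 and Iglc3, and Jchain. The marrow came from aged C57BL/6J mice whose transplanted gut microbiota was that of young donors in the FMT_young group and that of aged donors in the FMT_aged group. Recipients of both groups were aged and of the same strain. For each group 1 single-cell RNA library (10x Genomics, Chromium 3′ chemistry v3) was made from flow-sorted whole marrow, lineage-negative cells and lineage-negative Kit-positive cells, mixed 1 to 1 to 4. The number of animals behind a library and the exact ages of recipients and donors are not given in the labels. No replicate libraries exist within a group, so nothing could be tested and every comparison below is between these 2 libraries. Intervals are at 95% and cover counting error only.

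An antibody is made of heavy and light chains, and the constant gene of the heavy chain sets its class. Naive B cells splice 1 long transcript to either Ighm or Ighd, while switched cells have lost Ighm from the active allele and use Ighg or Igha instead. A B cell uses either the kappa constant gene, Igkc, or a lambda constant gene, Iglc1 to Iglc3. Jchain encodes the joining chain that links IgM and IgA into polymers, and plasma cells, which settle in the bone marrow for long periods, secrete the assembled antibody. Reads at the 3′ end were counted per gene, so the membrane-bound and secreted forms of a heavy chain were not told apart.

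The 3 lambda constant genes lie on the minus strand of chromosome 16 (GRCm38), Iglc1 at 19061618 to 19062071, Iglc3 at 19065230 to 19065681 and Iglc2 at 19198396 to 19200351. They are shown here because 3′ reads must separate near-identical copies for the lambda values to be read by gene. The last 90 coding bases of each, from the GENCODE vM21 transcripts, follow in the 5′ to 3′ direction, with capitals at the 29 positions at which the 3 sequences are not all the same.
Iglc1: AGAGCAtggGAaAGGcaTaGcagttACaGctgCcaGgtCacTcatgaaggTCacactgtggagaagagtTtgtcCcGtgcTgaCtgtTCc
Iglc2: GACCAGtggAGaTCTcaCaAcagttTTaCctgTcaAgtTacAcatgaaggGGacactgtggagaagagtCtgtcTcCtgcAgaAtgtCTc
Iglc3: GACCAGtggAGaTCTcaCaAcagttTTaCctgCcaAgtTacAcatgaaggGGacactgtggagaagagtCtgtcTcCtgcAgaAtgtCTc
In these bases Iglc3 differed from Iglc2 at 1 position. Over the coding sequence Iglc2 and Iglc3 were 96.2% identical, while Iglc1 was 73.4% identical to Iglc2 and 74.2% identical to Iglc3. Reads of Iglc2 and Iglc3 can therefore be split or dropped by the counting, and their separate values are uncertain wherever both are present. Ighg2b and Ighg2c were 85.6% identical in coding sequence.

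The FMT_young library held 214982156 UMIs (unique molecular identifiers, 1 for each captured transcript) and the FMT_aged library 207642851. Immunoglobulin genes took 8.41% of the FMT_young UMIs and 4.73% of the FMT_aged UMIs. Barcodes were taken as cells from 1000 UMIs and 500 genes upwards if mitochondrial UMIs did not pass 10%, and after removal of likely doublets 10793 FMT_young and 10320 FMT_aged cells were kept, with medians of 10832 and 11336 UMIs. The cells were clustered without any immunoglobulin gene, so the classes below were drawn without the genes described. Clusters were named from marker genes, with "-like" for a name given from transcripts. Of the kept barcodes, 33 were shared between the libraries.

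Plasma cell-like cells were 1110 of the FMT_young cells (10.3%) and 534 of the FMT_aged cells (5.17%). They lay in 2 clusters that were filled differently. Cluster 8, led by Mzb1 and Derl3, genes of the secretory pathway of plasma cells, held 906 FMT_young and 15 FMT_aged cells. Cluster 13, with the BAFF family receptor gene Tnfrsf17 and the syndecan gene Sdc1 among its leading genes, held 204 FMT_young and 519 FMT_aged cells. In 876 FMT_young plasma cell-like cells (78.9%) and 3 FMT_aged ones (0.562%), the single kappa variable gene Igkv1-117 held most of the kappa variable UMIs. All 876 were typed as Ighm and Igkc by the rule given below, and the plasma cell ratios of the members are also given without these cells. A further cluster, 26, with 10 FMT_young and 144 FMT_aged cells, held all 8 plasma cell markers but stayed unnamed. Its leading genes held 1 plasma cell marker and 1 marker of another type, Ly6d, which was also among those of cluster 8. Immunoglobulin was 56.2% of its UMIs in FMT_young and 48.7% in FMT_aged. The plasma cell-like counts above therefore leave out these cells, most of them FMT_aged. Mature B-like cells (320 FMT_young, 468 FMT_aged) lay mostly in cluster 20 in FMT_young (196 of 320) and in cluster 18 in FMT_aged (306 of 468).

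Most of the plasma cell transcriptome was immunoglobulin, 61.4% of UMIs in FMT_young and 63.7% in FMT_aged plasma cell-like cells. Igkc, the kappa constant gene (ENSMUSG00000076609, plus strand of chromosome 6 at 70726435 to 70726966), alone gave 388182 and 402033 CPM (UMIs scaled to 1000000 UMIs of the class), a log2 ratio of -0.05 for FMT_young over FMT_aged. Ighm, the constant gene of IgM (ENSMUSG00000076617, chromosome 12 at 113418558 to 113422730), had 189859 CPM in FMT_young and 175149 in FMT_aged, a ratio of 0.12 (interval 0.11 to 0.12). Both genes therefore stood at nearly the same share of plasma cell UMIs in the 2 libraries. Without the Igkv1-117-dominant cells the Ighm ratio was -0.36 and the Igkc ratio stayed at -0.05.

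Scaled to UMIs outside immunoglobulin genes, plasma cell-like cells had the highest level of every member among the named classes in both libraries except Ighd in FMT_young, highest in mature B-like cells, and Ighg2b in FMT_aged, highest in the 40 pro-B or pre-B-like cells. The map of levels by class shows all 10 genes.

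**Figure D1:**
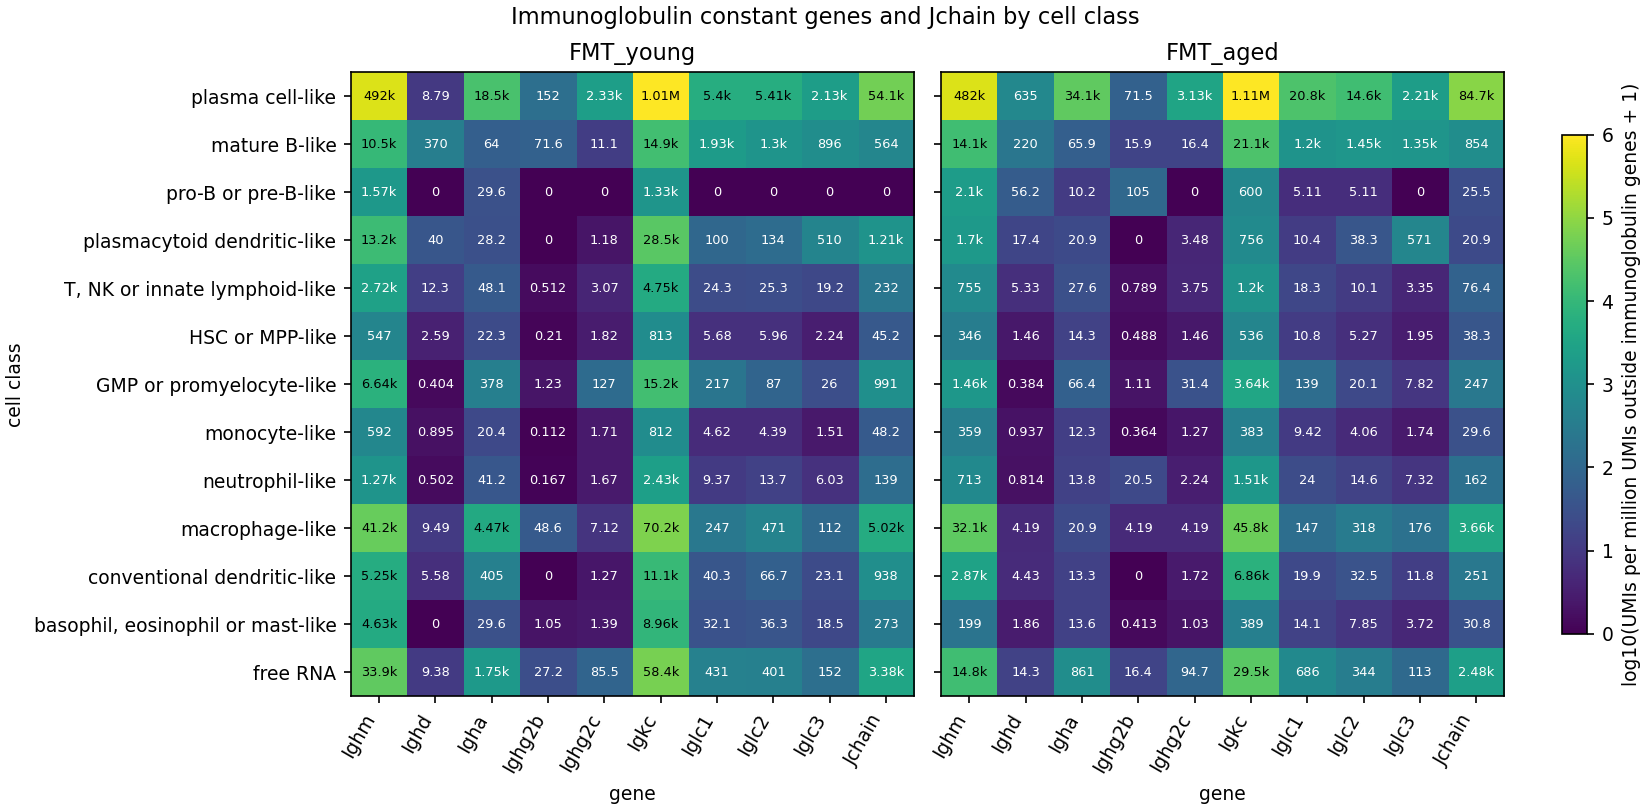
Level of each gene (columns) in each cell class and in free RNA (rows), as log10 of CPM plus 1 (colour, with the CPM printed in each field), scaled to UMIs outside immunoglobulin genes, for FMT_young (left) and FMT_aged (right). Plasma cell-like cells hold the highest colour for Ighm, Igha, Igkc and Jchain in both libraries, Ighd stands out in mature B-like cells and in FMT_aged plasma cell-like cells, and Iglc3 in plasmacytoid dendritic-like cells.

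Igha encodes the heavy chain of IgA, the antibody of mucosal secretions (ENSMUSG00000095079, chromosome 12, minus strand, 113254830 to 113260236). It had 7121 CPM (117494 UMIs) in FMT_young plasma cell-like cells and 12390 CPM (100154 UMIs) in FMT_aged ones, a log2 ratio of -0.80 (-0.81 to -0.79). The direction turned with the Igkv1-117-dominant cells. Without them the ratio was 1.65 (1.64 to 1.66), and within cluster 13 it was 1.71. Cluster 8 held only 328 Igha UMIs in its 906 FMT_young cells, against 4804 in its 15 FMT_aged cells. Only 1 of these 15 cells was Igha-typed by the rule given below, and 13 were Ighm-typed. All 876 dominant FMT_young cells were Ighm-typed, so leaving them out mainly lowered the UMI total. Any gene with few UMIs in them rises in ratio by this, as Ighg2b and Ighg2c also do below. Igha thus made up a lower share of all FMT_young plasma cell UMIs and a higher share of those outside the Igkv1-117-dominant cells.

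Cells were then counted by heavy chain. A plasma cell-like cell with at least 20 heavy chain constant UMIs was typed by the gene that held more than 50% of them, and 1107 FMT_young and 532 FMT_aged cells could be typed. Ighm-typed cells were 95.7% of these in FMT_young (1059 cells, interval 94.3 to 96.8%) and 93.4% in FMT_aged (497 cells, 91.0 to 95.4%). Igha-typed cells were 3.79% in FMT_young (42 cells, 2.75 to 5.09%) and 5.64% in FMT_aged (30 cells, 3.84 to 7.95%), with overlapping intervals. Without the Igkv1-117-dominant cells, Igha-typed cells were 18.2% of 231 FMT_young cells (13.4 to 23.8%) and 5.48% of 529 FMT_aged cells (3.70 to 7.78%). These intervals did not overlap, but they cover only the counting of cells within 1 library per group. All 876 dominant FMT_young cells were Ighm-typed, so leaving them out lowered the typed total from 1107 to 231. In cluster 13 alone Igha-typed cells were 20.7% (42 of 203) and 5.60% (29 of 518). All 42 FMT_young Igha-typed cells thus lay in cluster 13.

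Other heavy chain classes came from single cells. Ighg2c, the IgG2c gene of C57BL/6 mice (ENSMUSG00000076612, chromosome 12, minus strand, 113285325 to 113288932), typed 5 FMT_young cells (0.452%) and 2 FMT_aged cells (0.376%). These 5 cells held 4555, 4317, 2630, 2509 and 730 Ighg2c UMIs, and the 2 FMT_aged cells 4895 and 4167. Pooled, Ighg2c had 899 CPM in FMT_young and 1138 in FMT_aged (log2 ratio -0.34, but 2.05 without the Igkv1-117-dominant cells). Ighg2b (ENSMUSG00000076613, 113302965 to 113307933) was higher in FMT_young, with 968 UMIs against 210 in FMT_aged and a ratio of 1.18 (0.96 to 1.40), but 717 of the 968 UMIs, or 74.1%, sat in 1 cell. The Ighg2b ratio was 3.51 without the Igkv1-117-dominant cells, and with at most 5% mitochondrial UMIs or without doublet removal it turned, to -0.83 and -1.31. That cell, the only one typed as Ighg2b, had 3 Ighm UMIs, 1832 Igkc UMIs and 103 Jchain UMIs.

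Ighd, the gene of IgD (ENSMUSG00000104213, chromosome 12, minus strand, 113406604 to 113416324), is best known from naive B cells, yet 3 FMT_aged plasma cell-like cells carried almost all the Ighd UMIs of their class. They held 1445, 209 and 194 Ighd UMIs beside 3, 8 and 1 Ighm UMIs, and 15805, 10367 and 6086 Igkc UMIs, so IgD was their main heavy chain transcript. Pooled, their Ighd level was 34926 CPM (median cell 17751), far below the 189876 CPM of Ighm in FMT_aged Ighm-typed cells. Their Jchain counts were 933, 833 and 459. No FMT_young plasma cell-like cell was typed as Ighd: its 56 Ighd UMIs were spread over 51 cells. The class ratio of -6.09 (-6.50 to -5.70) for 56 and 1863 UMIs therefore rests on these 3 cells, and 1 of them gave 77.6% of the FMT_aged count. The 3 cells made up 0.564% of the typed FMT_aged cells.

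**Figure D2:**
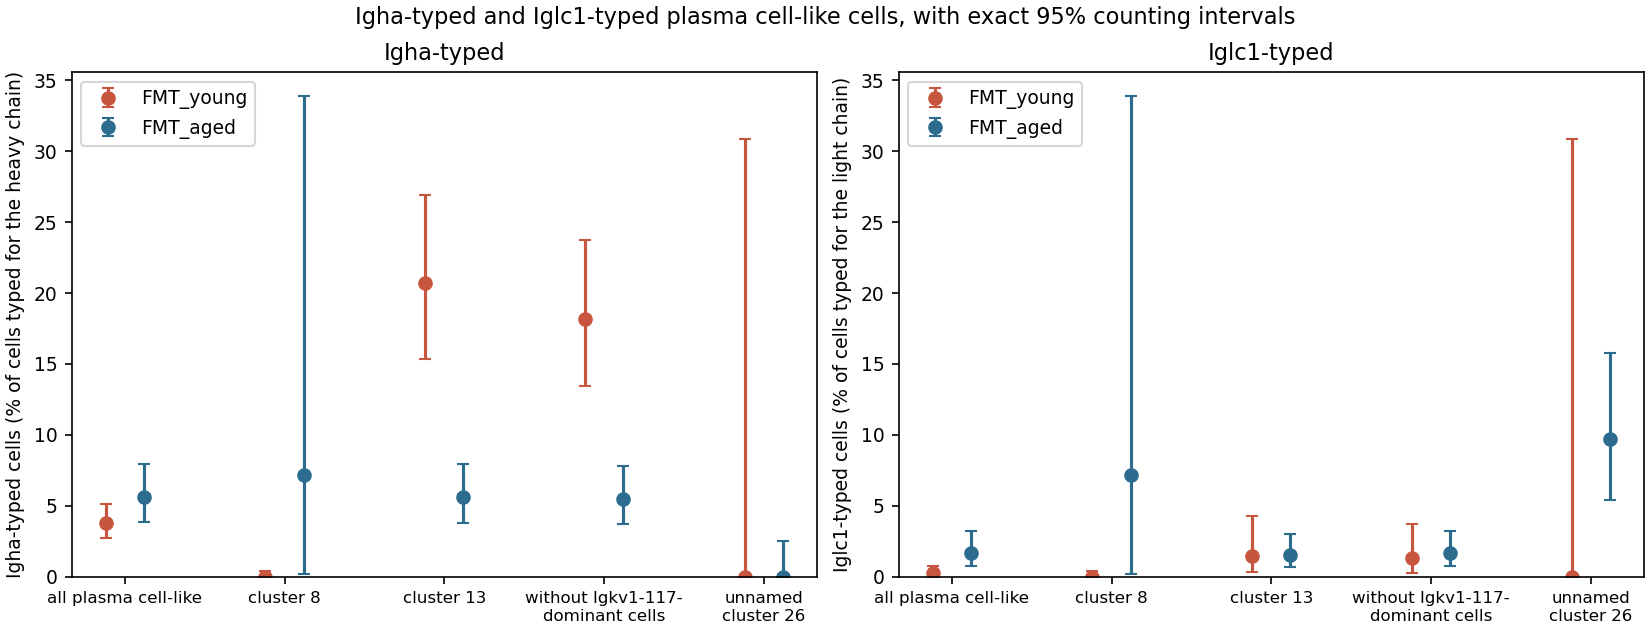
Percent of plasma cell-like cells, and of the unnamed cluster 26, typed as Igha (left panel) and Iglc1 (right panel) by cell set, FMT_young left of FMT_aged in each pair, with bars for exact 95% counting intervals. Igha-typed cells reach 20.7% of FMT_young and 5.60% of FMT_aged cells in cluster 13, against 3.79% and 5.64% in the whole class.

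Light chains were nearly all kappa. Among 1109 FMT_young and 531 FMT_aged plasma cell-like cells with enough light chain UMIs to be typed, Igkc held the majority in 99.6% and 97.2%. Iglc1 typed 3 FMT_young cells (0.271%) and 9 FMT_aged cells (1.69%), Iglc2 typed 1 and 6, and Iglc3 none in either library. Kappa-typed cells also held some lambda UMIs, 0.994% of their light chain UMIs in FMT_young and 1.05% in FMT_aged. Iglc1-typed cells were nearly pure, with 92.2% and 98.4% of light chain UMIs from Iglc1. The FMT_young Iglc2-typed cell had 76.9% from Iglc2, and the 6 FMT_aged ones had a median of 98.1%. Pooled, these 6 cells had 79.9% from Iglc2 and 19.6% from Igkc, with 1 of them, in cluster 8, at 50.7% from Iglc2.

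In pooled levels Iglc1 (ENSMUSG00000105906) had 2085 CPM in FMT_young and 7549 CPM in FMT_aged plasma cell-like cells, a log2 ratio of -1.86. Iglc2 (ENSMUSG00000076937) had 2088 and 5304 CPM (-1.35). Iglc3 (ENSMUSG00000105547) had 821 and 801 CPM, and its ratio of 0.04 (-0.007 to 0.08) did not leave 0. The few lambda-typed cells carried much of these values. The 3 FMT_young and 9 FMT_aged Iglc1-typed cells held 14692 of 34398 and 50086 of 61026 Iglc1 UMIs, and the 6 FMT_aged Iglc2-typed cells 25324 of 42880 Iglc2 UMIs. In kappa-typed cells Iglc1 stood at 3056 CPM in FMT_young and 3806 in FMT_aged and Iglc2 at 4958 and 6074, here of UMIs outside immunoglobulin genes. Without the Igkv1-117-dominant cells the ratios of Iglc1 and Iglc2 shrank to -0.37 and -0.71, and that of Iglc3 was 0.80. The unnamed cluster 26 held more Iglc1, with 14 of 144 FMT_aged cells Iglc1-typed (9.72%, 5.42 to 15.8%) and 0 of 10 FMT_young cells. All typed cells of that cluster were of the Ighm type, 10 in FMT_young and 144 in FMT_aged.

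Jchain (ENSMUSG00000067149, chromosome 5, minus strand, 88519809 to 88527891) had UMIs in 1100 of 1110 FMT_young and 530 of 534 FMT_aged plasma cell-like cells. Its level was 20863 CPM in FMT_young (344240 UMIs) and 30769 CPM in FMT_aged (248732 UMIs), a log2 ratio of -0.56. Without the Igkv1-117-dominant cells the ratio was 0.18, and within cluster 13 it was 0.22, while within cluster 8 it was -0.58 with 15 FMT_aged cells. The lower Jchain level of the whole FMT_young class was thus found with the Igkv1-117-dominant cells and not outside them.

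Jchain was highest in the IgA cells. Igha-typed cells had 64691 CPM of Jchain in FMT_young and 66615 CPM in FMT_aged. Ighm-typed cells had 19069 and 28031 CPM. The median Igha-typed cell held 62766 CPM of Jchain in FMT_young (quartiles 55265 and 73464) and 66256 in FMT_aged (59668 and 77441). The median Ighm-typed cell held 16132 in FMT_young (8069 and 27611) and 25347 in FMT_aged (14762 and 38823). Quartile ranges of the 2 cell types did not overlap in either library. The cells' own heavy chain, in 3′ counts that do not depend on gene length, did not differ in this way, with 173989 and 179267 CPM of Igha in Igha-typed cells and 199069 and 189876 CPM of Ighm in Ighm-typed cells.

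The log2 ratio of Jchain in Igha-typed over Ighm-typed cells was 1.76 (1.75 to 1.78) in FMT_young and 1.25 (1.23 to 1.26) in FMT_aged. Once Igkv1-117-dominant cells were left out it was 1.25 in both libraries, and the Ighm-typed cells then held 27263 and 28028 CPM of Jchain. With UMIs outside immunoglobulin genes as the total, these ratios without the dominant cells were 1.64 and 1.32. With that total and without the dominant cells, Igkc stood at 0.60 in FMT_young and -0.09 in FMT_aged. Over all typed cells and all UMIs it stood at 0.16 in FMT_young and -0.16 in FMT_aged, nearer to 0 than Jchain. Tnfrsf17, the receptor that plasma cells use to survive in the marrow, was also higher in Igha-typed cells, by 1.47 (1.15 to 1.76) in FMT_young and 0.58 (0.19 to 0.96) in FMT_aged. Sdc1 intervals reached 0 in both libraries. Mzb1, the gene of an endoplasmic reticulum cochaperone that aids IgM assembly, was at -0.76 in FMT_young and 0.30 in FMT_aged. Without the dominant cells the Mzb1 values were -0.22 and 0.31, and 0.17 and 0.39 with UMIs outside immunoglobulin genes as the total, while those of Tnfrsf17 were 0.98 and 0.57. The 3 Ighd-typed cells of FMT_aged had 42051 CPM of Jchain, between the Ighm-typed and Igha-typed cells. Jchain in the Ighg2c-typed cells varied from cell to cell, at 456, 153, 0, 73 and 11 UMIs in the FMT_young cells, in the order given for Ighg2c above, and 1161 and 631 in the FMT_aged cells.

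**Figure D3:**
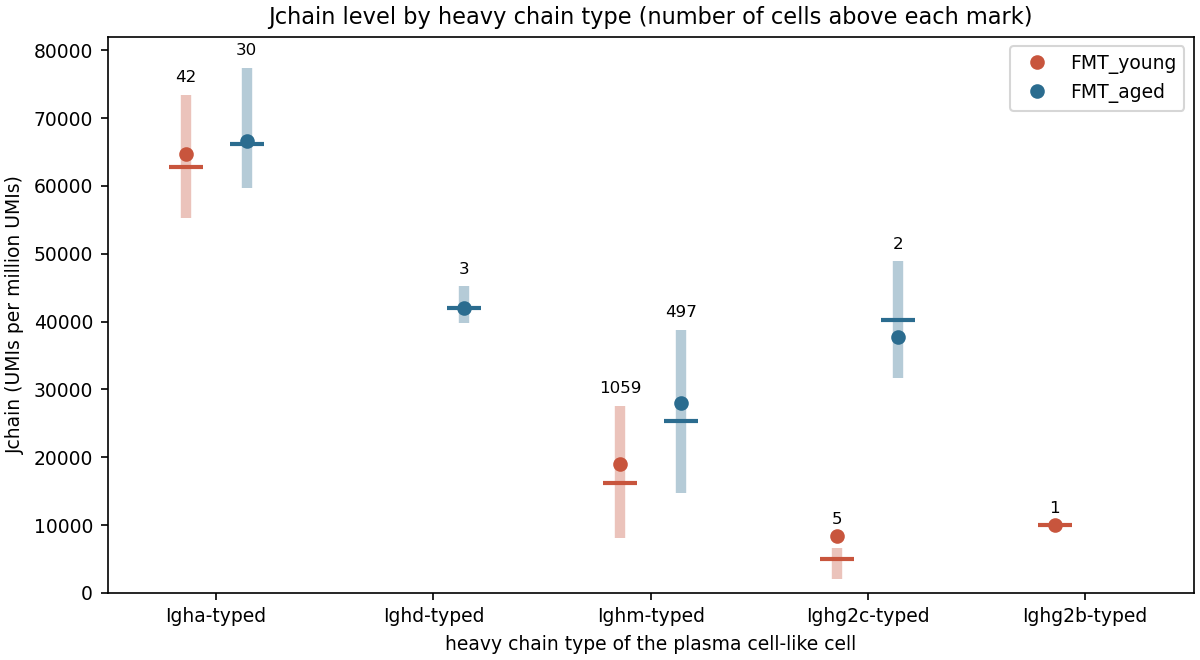
Jchain in CPM of plasma cell-like cells grouped by heavy chain type, FMT_young left of FMT_aged. Points are pooled levels, horizontal lines the medians and bars the quartiles of single cells, and the number of cells is printed above each mark; Igha-typed cells lie at 64691 and 66615 and Ighm-typed cells at 19069 and 28031.

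Called differences between the libraries, an absolute log2 ratio of at least 1 with at least 100 UMIs, were found for 4 of the 10 members in plasma cell-like cells: Ighd, Iglc1 and Iglc2 lower and Ighg2b higher in FMT_young. Of all 7132 genes with as many UMIs in this class, 4.32% were past the same limit in either direction. The median ratio was -0.45 over the members and -0.02 over all genes. These calls rest on the few cells described above, which for Iglc1 and Iglc2 are the lambda-typed ones. Without the Igkv1-117-dominant cells neither Iglc1 nor Iglc2 was past the limit. Igha (1.65) and Ighg2c (2.05) were then past it, and Ighg2b stood at 3.51. The share of all genes past the limit was not computed for that subset. In mature B-like cells 1 of 9 members with enough UMIs was called, Ighg2b, higher in FMT_young, where 3.22% of 4101 genes were called. That call was lost with at most 5% mitochondrial UMIs (0.69). There the medians were -0.14 over the members and -0.02 over all genes.

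**Figure D4:**
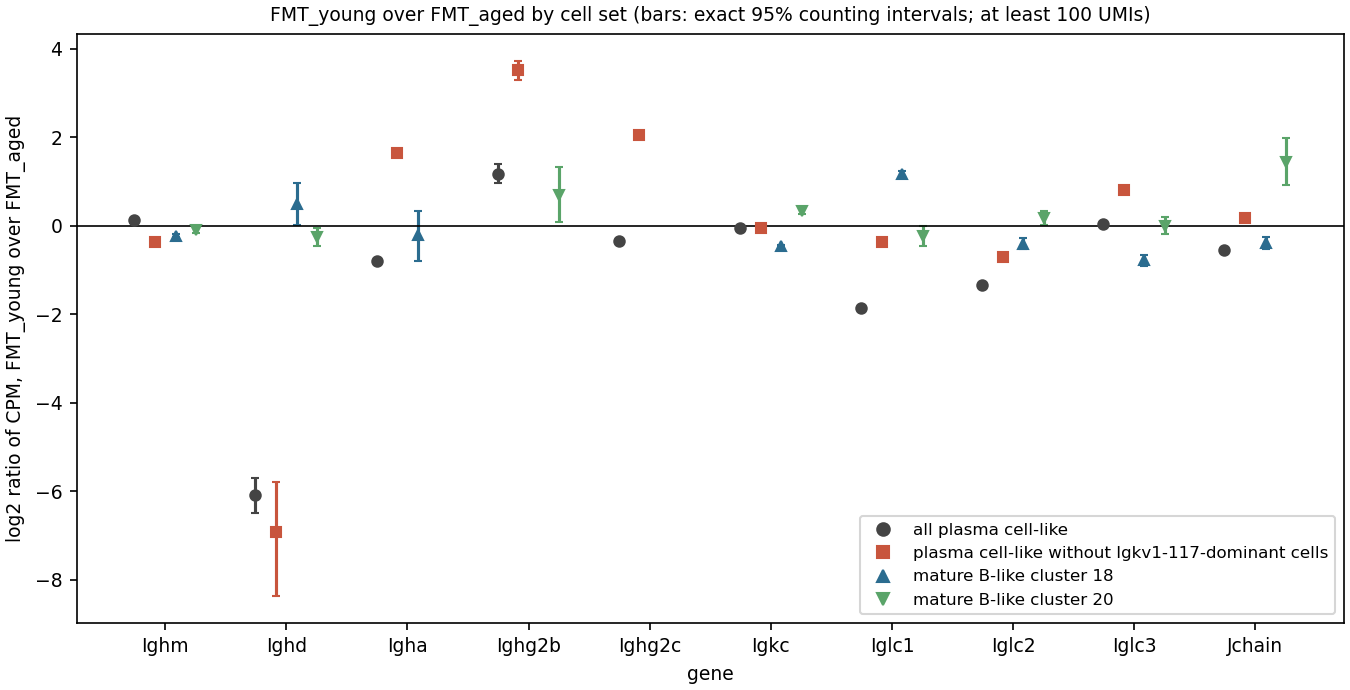
Log2 ratio of CPM, FMT_young over FMT_aged, for each gene with at least 100 UMIs, in plasma cell-like cells with and without the Igkv1-117-dominant ones and in mature B-like clusters 18 and 20. Bars are exact 95% counting intervals; Igha lies at -0.80 in all plasma cell-like cells and at 1.65 without the dominant cells, while Igkc lies at -0.05 in both.

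Mature B-like cells held far less immunoglobulin, 2.99% of UMIs in FMT_young and 3.90% in FMT_aged. Cells with at least 5% immunoglobulin UMIs, 8 in FMT_young and 34 in FMT_aged, held 46.1% and 52.8% of it. The top cell gave 21.5% of FMT_young and 11.3% of FMT_aged Ighm UMIs, and for Igkc 23.8% and 18.1%. Ighm had 10153 and 13536 CPM (log2 ratio -0.42) and Igkc 14497 and 20306 (-0.49). Neither direction was stable: each kept its sign in 4 of 9 alternatives, and with at most 5% mitochondrial UMIs Ighm stood at 1.00 and Igkc at 1.26. Without doublet removal they stood at 0.19 and 0.15. Ighd, co-expressed with Ighm in naive B cells, had 359 CPM in FMT_young (434 UMIs in 182 of 320 cells) and 211 CPM in FMT_aged (470 UMIs in 180 of 468 cells), a ratio of 0.77 (0.57 to 0.96). The 2 clusters differed much more than the libraries. Cluster 20, led by Ebf1, Fcmr and Cd22, had 734 CPM of Ighd in FMT_young and 878 in FMT_aged, and cluster 18, led by Ms4a1 with Zbtb32 among its leading genes, had 83.3 and 59.1 CPM. The ratio within cluster 20 was -0.26 (-0.47 to -0.05) and within cluster 18 it was 0.50. The higher Ighd level of the pooled FMT_young class therefore stood beside a larger part of its cells in cluster 20. Thinned to 1000 UMIs outside immunoglobulin genes, 48.2% of FMT_young and 48.8% of FMT_aged cluster 20 cells had an Ighd UMI, with 8.06% and 7.84% in cluster 18. The thinned shares were 0.380% and 0.403% in T, NK or innate lymphoid-like cells.

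Ighg2b in mature B-like cells had 84 UMIs (69.5 CPM) in FMT_young and 34 UMIs (15.3 CPM) in FMT_aged, a log2 ratio of 2.19 (1.59 to 2.81). The UMIs came from 14 FMT_young and 9 FMT_aged cells, with up to 17 and 14 in 1 cell. Cluster 20 held 68 of the 84 and all 34, cluster 18 held 16 and 0. Of 140 FMT_young and 340 FMT_aged mature B-like cells with enough heavy chain UMIs, 137 and 339 were typed as Ighm and 2 and 1 as Ighg2b.

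Lambda use in mature B-like cells differed most in cluster 18. Of its 116 typed FMT_young cells, 42 were of the Iglc1 type (36.2%, 27.5 to 45.6%), against 4 of 293 in FMT_aged (1.37%, 0.373 to 3.46%). Igkc-typed cells were 46 in FMT_young (39.7%) and 276 in FMT_aged (94.2%), and in 28 and 13 cells no gene held the majority. In cluster 20, by contrast, Igkc typed 92.4% of FMT_young and 94.9% of FMT_aged cells and Iglc1 typed 3 and 4 cells. The Iglc1 ratio was 1.16 within cluster 18 and -0.23 within cluster 20. Igkc-typed B cells still held lambda UMIs, 9.29% of light chain UMIs in FMT_young and 13.8% in FMT_aged in cluster 18, 17.4% and 22.2% in cluster 20, well above the shares near 1% in kappa-typed plasma cells. In free RNA, Igkc gave 98.3% of light chain UMIs in FMT_young and 96.3% in FMT_aged. The part of free RNA in the lambda shares of these B cells was not tested.

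Jchain in mature B-like cells had 547 CPM in FMT_young and 821 CPM in FMT_aged, but a single cell gave 451 of the 661 FMT_young UMIs (68.2%) and another 589 of the 1826 FMT_aged UMIs (32.3%). The log2 ratio of -0.59 kept its sign in 4 of 9 alternatives and ranged from -1.01 to 2.37, the highest with at most 5% mitochondrial UMIs. Thinned, 12.9% of FMT_young and 17.7% of FMT_aged cells had a Jchain UMI, against 9.51% and 7.38% of T, NK or innate lymphoid-like cells. In B-like cells with under 5% immunoglobulin UMIs, Jchain per Igkc UMI was 0.274 times the free RNA value of the library in FMT_young and 0.191 times in FMT_aged. Igha stood likewise at 0.307 and 0.236 times. Most typed cells of this class were Igkc-typed, so part of their Igkc can be their own. These quotients therefore cannot place Jchain or Igha above or below free RNA.

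Pro-B or pre-B-like cells numbered only 4 in FMT_young and 40 in FMT_aged, so their values are given without comparison. The FMT_aged cells held 822 Ighm UMIs, 235 Igkc UMIs, 41 Ighg2b UMIs in 9 cells, 22 Ighd UMIs in 13 cells, 10 Jchain UMIs and 0 of Iglc3. The 4 FMT_young cells held 53 Ighm and 45 Igkc UMIs. In the FMT_aged cells with under 5% immunoglobulin UMIs, Ighm per Igkc UMI was 6.96 times the free RNA value. Heavy chain genes are rearranged before light chain genes in B cell development.

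Outside the B lineage, immunoglobulin UMIs must be read against free RNA, the transcripts of broken cells that enter every droplet. Barcodes with under 100 UMIs held 8202153 UMIs in FMT_young and 7690446 in FMT_aged. In them Igkc stood at 53117 and 28080 CPM, Ighm at 30809 and 14109, Jchain at 3076 and 2362, Igha at 1591 and 820, Iglc1 at 392 and 654, and Ighd at 8.53 and 13.7. Log2 ratios of FMT_young over FMT_aged in free RNA were 1.13 for Ighm, 0.96 for Igha, 0.92 for Igkc, 0.67 for Ighg2b, 0.38 for Jchain and 0.36 for Iglc3. They were 0.15 for Iglc2, -0.21 for Ighg2c, -0.68 for Ighd and -0.74 for Iglc1. In barcodes of 10 to 99 UMIs the Ighg2b ratio turned to -0.18. Free RNA was thus richer in Ighm, Igkc and Igha in the library with more plasma cell-like cells, which cannot be told apart here from the treatment.

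Cells rich in immunoglobulin held most of it in several non-B classes. Among granulocyte-monocyte progenitor (GMP) or promyelocyte-like cells, 27.3% in FMT_young and 8.51% in FMT_aged had at least 5% immunoglobulin UMIs and held 94.1% and 83.6% of the class's immunoglobulin UMIs, while the median cell had 0.137% and 0.0509%. They were concentrated in clusters 12 (486 of 624 FMT_young and 19 of 101 FMT_aged cells), 6 (312 of 636 and 163 of 489) and 27 (all 103 and all 13). Clusters 6 and 12 were shallow, with medians of 1901.5 and 3828.5 UMIs in FMT_young and 2901 and 3650 in FMT_aged. Cluster 27 was deep, with medians of 39043 UMIs in FMT_young and 40345 in FMT_aged. In macrophage-like cells 12 FMT_young and 2 FMT_aged cells held 97.5% and 97.4%. In plasmacytoid dendritic-like cells 6 FMT_young cells held 92.3%, and no FMT_aged cell passed 5%. The source of the immunoglobulin UMIs in these barcodes was not tested. Low-immunoglobulin cells, under 5%, were therefore used for the other classes, with each gene set against Igkc and against the same quotient in free RNA.

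Over all cells Jchain followed these carriers. After plasma cell-like cells came macrophage-like cells, at 4476 CPM in FMT_young and 3385 in FMT_aged, the other classes lying below free RNA. The next in FMT_young were plasmacytoid dendritic-like (1161), GMP or promyelocyte-like (968) and conventional dendritic-like cells (921). In FMT_aged they were mature B-like (821), conventional dendritic-like (248) and GMP or promyelocyte-like cells (246), the last of these pairs with overlapping intervals. Monocyte-like cells (48.2 in FMT_young, 29.6 in FMT_aged) and HSC or MPP-like cells, the stem and multipotent progenitor class (45.2 and 38.3), were among the lowest. In low-immunoglobulin cells of the non-B classes Jchain per Igkc UMI stayed between 0.873 and 1.22 times the free RNA value in FMT_young and between 0.329 and 1.03 times in FMT_aged.

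Iglc3 stood far above free RNA in plasmacytoid dendritic-like cells, the type I interferon producers of the marrow (cluster 24, with Siglech, Cox6a2, Klk1 and Ccr9 among its leading genes). Of 133 FMT_young cells, 82 had an Iglc3 UMI, 433 UMIs in all, and of 52 FMT_aged cells 35 had one, 164 in all. At most 25 and 12 UMIs came from 1 cell. In low-immunoglobulin cells the level was 466 (420 to 516) CPM, here of UMIs outside immunoglobulin genes, in FMT_young and 571 (487 to 666) in FMT_aged. Iglc3 per Igkc UMI was 158 times the free RNA value in FMT_young and 197 times in FMT_aged.

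The intervals of these Iglc3 levels overlapped between the libraries. The near-identical Iglc2 had 27 and 11 UMIs in low-immunoglobulin cells, 4.36 and 4.34 times its free RNA value, and Iglc1 stood at 1.65 and 0.594 times. Among the named non-B classes the next highest Iglc3 value was that of the FMT_aged macrophage-like cells, at 12.5 times from 11 UMIs. In FMT_young macrophage-like cells it was 2.22 times from 8 UMIs. In FMT_aged, where no immunoglobulin-rich cell was present, Iglc3 gave 41.5% of light chain UMIs of the class. Thinned to 1000 UMIs outside immunoglobulin genes, 30.8% of FMT_young (23.1 to 39.4%) and 40.4% of FMT_aged cells (27.0 to 54.9%) had an Iglc3 UMI. The thinned shares were 0.665% and 0.403% in T, NK or innate lymphoid-like cells and 0.336% and 0.528% in neutrophil-like cells. Unthinned shares were 61.7% and 67.3% in plasmacytoid dendritic-like cells, at medians of 6133 and 5009.5 UMIs, and 2.28% and 1.01% in T, NK or innate lymphoid-like cells, at 3366.5 and 3180.5 UMIs. Among named classes only mature B-like (870 and 1294 CPM) and plasma cell-like cells held more Iglc3 than the 488 and 569 CPM of this class.

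**Figure D5:**
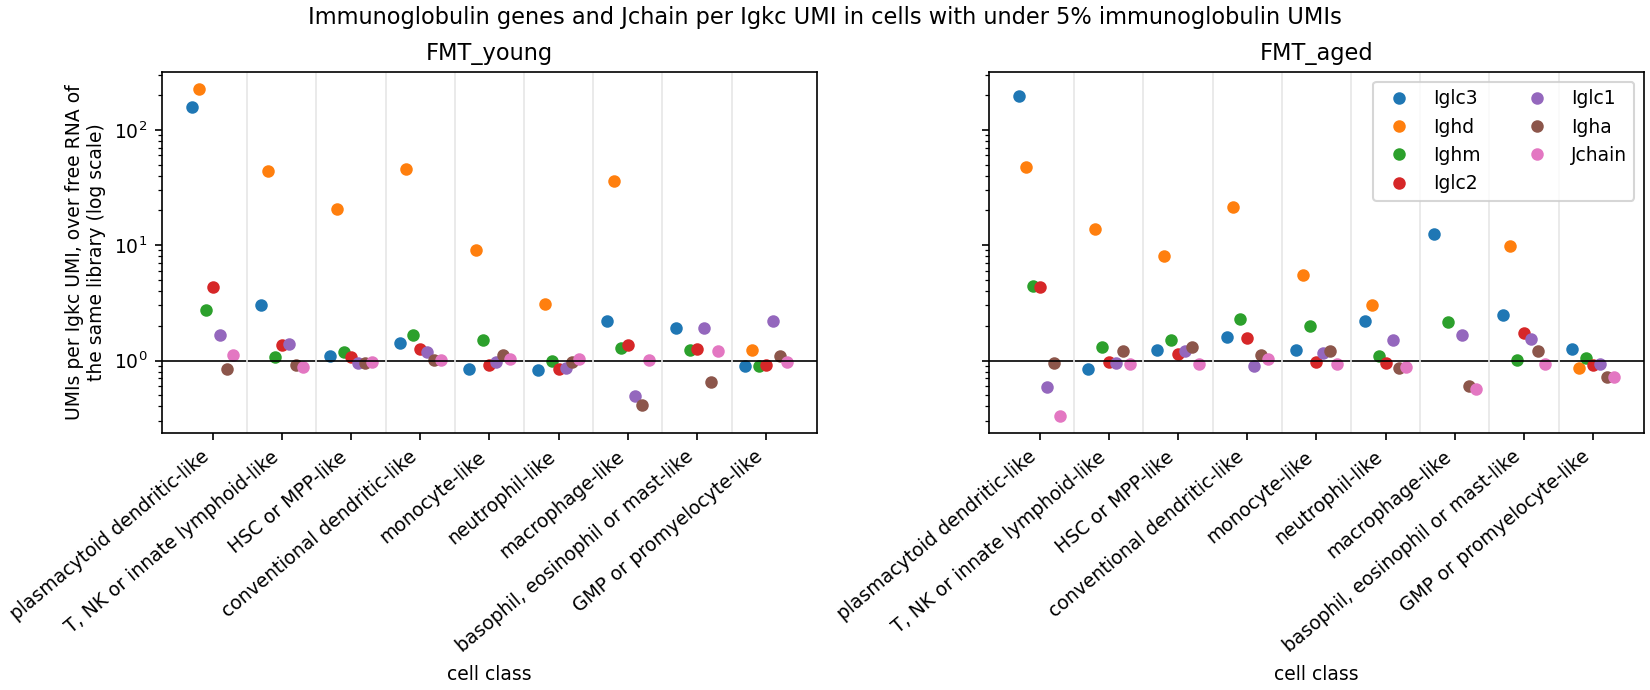
UMIs of each gene per Igkc UMI in cells with under 5% immunoglobulin UMIs, divided by the same quotient in free RNA of the library (log scale, line at 1), by cell class for FMT_young (left) and FMT_aged (right). Iglc3 in plasmacytoid dendritic-like cells lies at 158 and 197, and Ighd lies between 8.10 and 45.9 in T, NK or innate lymphoid-like, conventional dendritic-like and HSC or MPP-like cells of either library.

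Ighm and Ighd were also above the free RNA quotient in low-immunoglobulin plasmacytoid dendritic-like cells. Ighm stood at 2.74 times in FMT_young and 4.47 times in FMT_aged (1801 and 1696 CPM of UMIs outside immunoglobulin genes). Ighd stood at 228 and 47.4 times, from 33 and 5 UMIs. Igha stood at 0.852 and 0.946 times and Jchain at 1.11 and 0.329 times. Ighm also passed 1 in low-immunoglobulin cells of other classes, among them conventional dendritic-like cells (1.65 and 2.31 times) and monocyte-like cells (1.51 and 1.98 times). It lay close to 1 in neutrophil-like cells (0.993 and 1.10 times).

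Low counts of Ighd were seen in other classes without a B lineage marker in their name. Low-immunoglobulin T, NK or innate lymphoid-like cells held 48 UMIs in FMT_young and 27 in FMT_aged, 44.4 and 13.9 times the free RNA quotient. Conventional dendritic-like cells held 22 and 17 (45.9 and 21.4 times), HSC or MPP-like cells 37 and 30 (20.5 and 8.10 times) and monocyte-like cells 32 and 36 (9.18 and 5.53 times). GMP or promyelocyte-like cells, with 10 and 12 UMIs, were at 1.24 and 0.856 times. The free RNA quotient rests on 70 FMT_young and 105 FMT_aged Ighd UMIs. Thinned shares of cells with an Ighd UMI were 0.380% and 0.403% in T, NK or innate lymphoid-like cells and 0.260% and 0.127% in HSC or MPP-like cells, against 0 of 893 FMT_young neutrophil-like cells, which allows a share of up to 0.336% by a limit of 3 counts and 0.412% by the exact interval, and 0.132% in FMT_aged ones. At this depth these shares could not be told from each other.

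In neutrophil-like cells Ighg2b had 101 UMIs in FMT_aged, 99 of them in 1 cell. In FMT_young macrophage-like cells Igha had 3765 UMIs with 2415 in 1 cell (64.1%). Ighg2b had 41 UMIs in 21 FMT_young macrophage-like cells and 1 UMI in FMT_aged.

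The remaining genes of the pathway were read from lists, in plasma cell-like cells, where 4.32% of genes were past a log2 ratio of 1. Of 10 B cell receptor and surrogate light chain genes 7 had at least 100 UMIs. The interval lay below 0 for 4 and above 0 for 0, 2 were called lower and the median was -0.19. Vpreb3, a gene of the surrogate light chain family, was called lower with 105 UMIs in FMT_young and 121 in FMT_aged (-1.23), but stood at 0.88 without the Igkv1-117-dominant cells, where no gene of this list was called. Of 3 further heavy chain constant genes, Ighg3 had 131 and 470 UMIs (-2.87, or -1.68 without the dominant cells), Ighg1 11 and 1, and Ighe 1 and 0. In mature B-like cells no gene of the receptor list was called and the median was 0.03.

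All 12 plasma cell regulators and secretory genes were measured, with 6 intervals above 0, 5 below, none called and a median of 0.05. Mzb1 had 2354 CPM in FMT_young and 1278 in FMT_aged (0.88), and the chaperone gene Hspa5 1377 and 766 (0.85). Tnfrsf17 had 58.2 and 80.8 CPM (-0.47), and Herpud1, of endoplasmic reticulum-associated degradation, 439 and 606 (-0.46). Without the Igkv1-117-dominant cells these ratios were 0.36 for Mzb1, 0.61 for Hspa5, 0.17 for Tnfrsf17 and -0.05 for Herpud1, the last pair with intervals that included 0. Of 6 class switch genes 2 had enough UMIs and both intervals included 0. Of 11 immunoglobulin receptor genes 3 were measured. Fcmr, the IgM Fc receptor gene, was called lower (217 and 335 UMIs, -1.66), Fcer1g stood at -0.44 and Fcgr2b at -0.15. Without the dominant cells these were -0.86, 0.67 and -0.37, so none was called. Fcgr4, with fewer UMIs than the limit, had 17 in FMT_young and 0 in FMT_aged. In mature B-like cells, where 3.22% of genes were called in either direction, 5 of them were measured and 2 called higher: Pigr, the polymeric immunoglobulin receptor gene that carries IgA and IgM across epithelia (99 and 48 UMIs, 1.92), and Fcer2a, the gene of CD23 (97 and 64 UMIs, 1.48). Within clusters, Pigr lay mostly in cluster 18 (95 and 44 UMIs, 2.49), and Fcer2a mostly in cluster 20 (95 and 53 UMIs, 0.53), the cluster that held most FMT_young and fewer FMT_aged mature B-like cells.

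Genes with patterns like those of 3 members were sought by Pearson's r of log2(CPM + 10), scaled to UMIs outside immunoglobulin genes, over 22 points, 11 classes in each of 2 libraries. The points of a library share its depth and free RNA, so r is given as a description. The genes nearest to Jchain outside immunoglobulin segments were Derl3 (0.91), Eaf2 (0.90), Oosp1 (0.90), Ell2 (0.89) and Bcl2l15 (0.88). Among the other members Igkc had an r of 0.99 with Jchain, Ighm 0.97 and Ighd 0.49. Nearest to Igha were Farp2, Sel1l and Wnt10a (0.91 each), Cacna1h (0.90) and Bcl2l15 (0.90). Ighd had a different set, Hcrtr2 (0.96), the B cell kinase gene Blk (0.92), Fcmr (0.89), Abhd6 (0.89) and Lipc (0.88).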

How the data were processed

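Bone marrow cells of 1 FMT_young and 1 FMT_aged library were read from the deposited raw UMI counts per gene and barcode, made by the authors with Cell Ranger (3.1.0, per the file headers) and mm10, per the submitters' processing notes. The deposited gene and barcode lists, of unit other, hold names, 31053 genes and 6794880 barcodes. Replicate animals within a library are not given in the labels.

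Cells had at least 1000 UMIs, 500 genes and at most 10% mitochondrial UMIs (11932 FMT_young, 11351 FMT_aged). A Scrublet-type score (30 components, 2 simulated doublets per cell) removed the top 0.8% per 1000 cells, 1139 (9.55%) and 1031 (9.08%). Both libraries were clustered together after leaving out 393 immunoglobulin genes: counts scaled to 10000, 2000 variable genes, 40 components, 20 neighbours, Leiden resolution 1.0. A cluster's name needed 3 markers in 10% of its cells and 1.5 times higher than elsewhere, and more own than foreign markers among its 10 leading genes.

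UMIs were summed per class and library, as CPM with exact Poisson intervals. Log2 ratios have exact conditional binomial intervals and shares exact Clopper-Pearson intervals. PCR error and differences between animals lie outside them. Igkv1-117 dominance needed over 50% of at least 3 kappa V UMIs. The 2 members of a list that were named on either side of 0 had the interval bounds farthest from it in plasma cell-like cells. Values of some list genes are not reported here. The members, lists and markers were chosen with earlier results of these data known. The ratio step was tested on simulated counts. Alternatives were other cell filters, no doublet removal, resolution 2.0, clustering with immunoglobulin genes, marker scores, other totals and free RNA limits; 4 were added after seeing the data (cluster 26 as plasma cells, for ratios and for isotypes, low-immunoglobulin cells, and list genes in subsets of cells). Gene positions and sequences are from GENCODE vM21. Python 3.11.15, numpy 2.4.6, scipy 1.17.1, scikit-learn 1.9.0, leidenalg 0.10.2, igraph 0.11.9, matplotlib 3.10.9 and Biopython 1.88 were used.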

Additional observations from a re-analysis of the deposited data

Results flagged for a closer look

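Barcodes of at least 100 but under 1000 UMIs, which enter neither the cells nor the free RNA of the report, held more immunoglobulin in FMT_young than in FMT_aged. In FMT_young barcodes of this size Igkc stood at 44763 CPM, against 16678 in FMT_aged ones. Igha stood at 1208 CPM in FMT_young and 338 in FMT_aged ones. Neither difference was tested, with 1 library per group.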

How the results depend on the processing

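No paired analysis was possible because there is 1 library per group. Log2 ratios are FMT_young over FMT_aged. With at most 5% mitochondrial UMIs Ighm gave no value in pro-B or pre-B-like cells, since no such class was found. Ighg2b in plasma cell-like cells, at 1.18, was reversed with at most 5% mitochondrial UMIs (-0.83) and without doublet removal (-1.31), and Igkc in pro-B or pre-B-like cells, at 1.15, with classes by marker score (-1.39); the cause was not tested beyond the single cells named in the report. Igha in plasma cell-like cells, at -0.80, was -0.86 with at least 2000 UMIs, -0.84 with at most 5% and -0.74 with at most 20% mitochondrial UMIs, -0.44 with immunoglobulin genes kept in the clustering, -0.37 with marker scores, -0.89 with UMIs outside immunoglobulin genes as total, -0.60 as a mean over cells, -0.48 with cluster 26 added and 1.65 without Igkv1-117-dominant cells. Ighm, at 0.12, was 0.11 with at most 20% mitochondrial UMIs, 0.15 without doublet removal, 0.15 with immunoglobulin genes kept in, 0.16 with marker scores, 0.029 with the other total, 0.087 as a mean over cells, 0.16 with cluster 26 added and -0.36 without Igkv1-117-dominant cells. Ighd in mature B-like cells, at 0.77, was 0.47 as a mean over cells. The Ighm-typed share of FMT_young plasma cell-like cells, 95.7%, was 79.2% without Igkv1-117-dominant cells. Igkc in free RNA was 0.89 in barcodes under 50 UMIs and 1.06 in those of 10 to 99. Ighg2b in free RNA, at 0.67, was -0.18 in barcodes of 10 to 99 UMIs. Over all alternatives run, Ighd in plasma cell-like cells ranged from -6.92 to -5.48, Iglc1 from -2.64 to -0.37, Iglc2 from -1.43 to -0.71 and Jchain from -0.65 to 0.18. In mature B-like cells Ighm ranged from -0.51 to 1.00, Igkc from -0.60 to 1.26, Jchain from -1.01 to 2.37 and Ighg2b from 0.69 to 3.48. Depth limits Ighd outside the B lineage, with under 50 UMIs per class and library, and the Ighg2b, Ighg2c, Ighd, Iglc1 and Iglc2 types of plasma cell-like cells, with under 10 cells each.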
